A study of Mus musculus with 12 samples.

Results

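The wild type littermates of 2 knockin mouse lines were compared with each other, to describe the cerebellum at 6 weeks of age and its variation where no knockin allele is carried. They are the 6 arrays, of 12 in the series, whose titles name a wild type littermate: 3 from the line labelled MPI 11Q/11Q (below, the 11Q line) and 3 from the line labelled MPI 118Q/118Q (the 118Q line). Both lines are Sca6 knockin models on the C57BL/6 background, in which homozygous mice carry a changed allele of Cacna1a, the gene of spinocerebellar ataxia type 6, with a run of 11 or 118 glutamine codons. The mice described here carry none of it. The remaining 6 arrays, 3 of each knockin, enter the fit that estimates the spread and are otherwise named only for scale. Each array measured total RNA of 1 cerebellum, and the labels give 3 mice in each group. The sources used here give no litter, sex or dissection, so that line, breeding colony and any handling that differed between the lines cannot be told apart.

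Cacna1a encodes the pore of a voltage-gated channel, named P/Q, through which most calcium enters Purkinje cells, the only output neurons of the cerebellar cortex. The cortex holds these cells above a dense layer of granule cells, with inhibitory interneurons, Bergmann glia, myelinating oligodendrocytes, microglia and vessels. Meninges cover it, and the choroid plexus of the fourth ventricle lies against its underside. The spread among wild type littermates is variation with no knockin allele, beside which a knockin effect in the same line can be read.

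Values are on a log2 scale, as deposited, so that 1 unit is a 2-fold difference, and 12671 genes were tested with 1 probe set each. Markers of the labelled tissue were bright in all 6 wild types. Pcp2 and Calb1 of Purkinje cells lay between 10.29 and 10.87, and Gabra6 and Neurod1 of granule cells between 10.38 and 10.63. Of 12 forebrain genes 3 were measured, and of 24 genes of the hindbrain and brainstem nuclei 5.

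Several arrays stood apart. Across genes, replicate 3 of the 11Q line correlated with replicate 3 of the 118Q line at r = 0.993, but with its own line mates at 0.984 and 0.983. Replicate 3 of the 118Q line correlated with its own mates at 0.984 and 0.986. Both of these arrays were also the lowest of the 6 for the hybridisation controls bioC (6.75 and 6.87, against 7.02 to 7.26), bioD (9.11 and 9.10, against 9.23 to 9.65) and cre (11.19 and 11.19, against 11.35 to 11.64). A further hybridisation control, bioB, did not set them apart but separated the lines, at 5.54, 5.22 and 5.22 in the 11Q line and 5.09, 5.18 and 5.11 in the 118Q line (difference -0.20; exact permutation test, two-sided, p = 0.1; 0.367 after adjustment over 11 control measures). Replicate 2 of the 118Q line stood apart in the choroid plexus genes described below. The 18S ribosomal RNA signal was 10.24, 10.54 and 10.53 in replicates 1, 2 and 3 of the 11Q line and 9.78, 9.66 and 10.32 in those of the 118Q line, a difference of -0.52 (exact permutation test, two-sided, p = 0.2; 0.367 after adjustment over 11 control measures). The spike-in controls phe, thr, dap and lys were higher in the 118Q line, by 0.81, 0.68, 0.63 and 0.48 (exact permutation test, two-sided, p = 0.2, 0.2, 0.3 and 0.4). The 3-prime minus 5-prime signal of the Actb and Gapdh control probe sets differed by -0.11 each (the same permutation test, p = 0.2 each). With 3 arrays against 3 this test allows no p below 0.1. The part of these measures in the results was not tested, and counts without the arrays concerned are given beside them.

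Between the wild types of the lines, no gene passed. At an adjusted p below 0.05 (limma, Benjamini-Hochberg over all genes, two-sided) 0 of 12671 genes were called, or 0%, and the smallest adjusted p was 0.387. At an unadjusted p below 0.05 there were 378 genes, or 2.98%: 241 higher in the 118Q line (1.9%) and 137 lower (1.08%). Where no gene differs, this threshold alone passes a share of about 0.05, so with all arrays 2.98% is not an excess. All 3 arrays of the 118Q line lay above all 3 of the 11Q line for 507 genes (4%) and below them for 309 (2.44%). Arrays dealt to the lines at random separate in either direction with a probability of 0.1. These shares are no excess over that. The difference had a median standard error of 0.139 log2 units, and its 95% interval lay inside a 2-fold change in both directions for 98.4% of genes and inside a 1.5-fold change for 85.2%. A count of 0 therefore goes with a bound and does not show that the lines were alike. No gene was called in the fit of the 6 wild types alone, and limma with array weights called 2 genes by its default estimate, which stopped before converging, and 0 by the gene-by-gene estimate. Without replicate 3 of the 11Q line 1 gene was called, Cpne8, and 903 had an unadjusted p below 0.05; without replicate 3 of the 118Q line the latter count was 845, and without both of these arrays 996. Without replicate 1 of the 118Q line 1 gene was called, Comp.

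The smallest p values belonged to genes lower in the 118Q line. Rmst, a long noncoding RNA gene of neural development, was at 2.31, 2.63 and 2.43 in the 11Q line and at 1.64, 1.86 and 1.73 in the 118Q line. All values of the second line lay below those of the first, and the difference was -0.71 ± 0.11 (SE, limma adjusted p = 0.387). The 118Q-line values lay just above 1.58, the mean level under which probe sets were left out of the fit, so this size is uncertain. The probe set annotated to Mir1931, a microRNA gene whose mature product this array does not measure, was at 4.42, 4.60 and 4.89 against 3.49, 2.97 and 3.23, a difference of -1.41 ± 0.24 (limma adjusted p = 0.387). Again the lines did not overlap. These genes, and the others named by size of p, were chosen on the same arrays, so a lack of overlap is a description.

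The other genes named by size of p had an adjusted p of 0.99993. Taf15, an RNA-binding protein of the FET family, was at 5.16, 5.12 and 5.38 in the 11Q line and 4.61, 4.69 and 4.67 in the 118Q line. Soga3 was at 6.54, 6.51 and 6.27 against 5.71, 5.67 and 5.75. Both were separated between the lines. Eml6, a microtubule-associated protein, and Map3k8, a kinase of inflammatory signalling, were also separated, with differences of -0.65 ± 0.17 and -0.46 ± 0.14. Prex2, a Rac exchange factor found in Purkinje cells, differed by -0.65 ± 0.17 with overlapping arrays: its lowest 11Q-line value and its highest 118Q-line value were both 6.00. Hcfc2 differed by -0.38 ± 0.11 in its brightest probe set but by 0.31 and 0.51 in its others, so no direction is given for this gene.

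Among genes with higher values in the 118Q line, Slc6a13 had the smallest p. Slc6a13, a GABA transporter of the meninges, was at 3.75, 3.92 and 4.09 in the 11Q line and at 4.49, 4.32 and 4.48 in the 118Q line. The arrays did not overlap, and the difference was 0.51 ± 0.11 (SE). Ddr2, a receptor tyrosine kinase for collagen, differed by 0.47 ± 0.12 and Itih2, a secreted protein that binds hyaluronan, by 0.62 ± 0.16, each without overlap. S100a9, a calcium-binding protein abundant in neutrophils, was dim throughout, at 0.99, 1.47 and 1.49 against 2.64, 1.81 and 2.87. All values of the 11Q line lay below 1.58, the mean level under which probe sets were left out of the fit, so no size is given for this difference.

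Cpne8, which encodes a copine, a protein that binds membranes in the presence of calcium, was at 2.92, 3.22 and 4.04 in the 11Q line and at 4.31, 4.16 and 4.31 in the 118Q line. Replicate 3 of the 11Q line lay nearest to the other line. The difference was 0.87 ± 0.21 with all arrays and 1.19 without that array (limma adjusted p = 0.00488). Its other probe sets differed by 0.28 and 0.26. Cpne6, another copine, was at 3.66, 3.74 and 3.74 against 4.13, 4.16 and 4.0. Tnfrsf9, a receptor of activated immune cells, and Ldhd, a mitochondrial lactate dehydrogenase, completed the 8, at differences of 0.39 ± 0.10 and 0.46 ± 0.12.

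**Figure D1:**
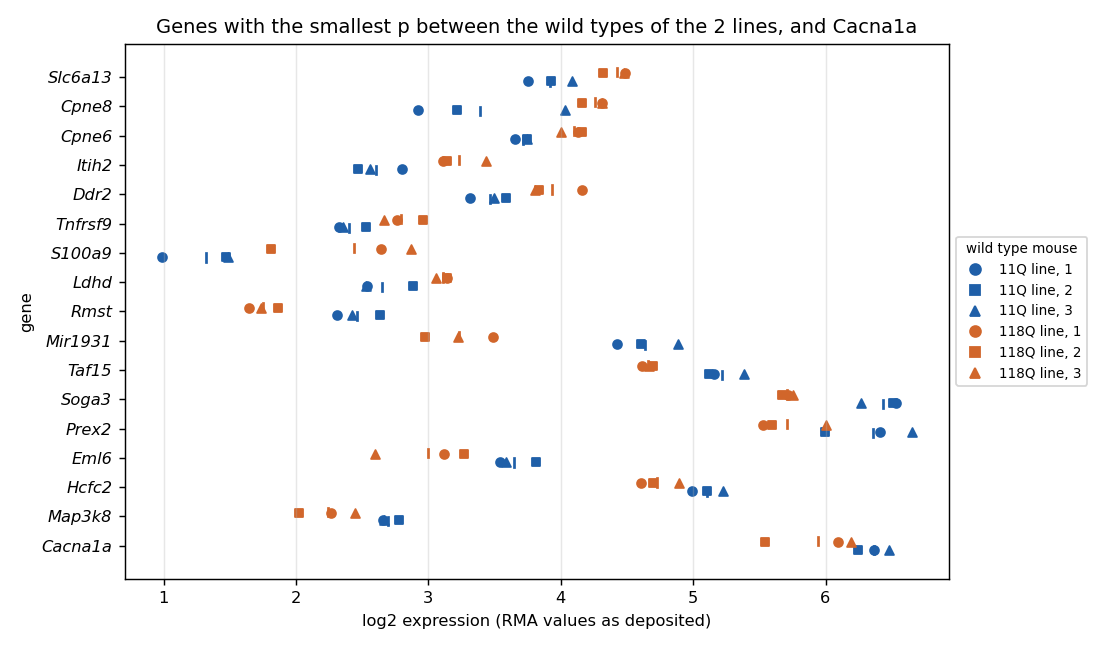
Log2 expression of each wild type mouse for the 16 genes with the smallest p between the lines, 8 in each direction, and for Cacna1a; blue marks the 11Q line, orange the 118Q line, symbols the replicate and short bars the mean of 3 mice. The lines do not overlap for any gene drawn other than Prex2, and no gene drawn passed the adjusted threshold. The 16 genes were chosen by p on these same arrays, so their lack of overlap is a description.

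Cacna1a, the gene that carries the knockin allele in the affected mice of both lines, was read in wild types by 3 probe sets. The brightest was at 6.36, 6.25 and 6.48 in the 11Q line and at 6.09, 5.54 and 6.19 in the 118Q line. All 118Q-line values lay below the 11Q-line values, with replicate 2 the lowest. The difference was -0.42 ± 0.15 (SE; limma adjusted p = 0.99993), and the other probe sets differed by -0.40 and -0.21. Among 37 measured genes of 44 at or near the Cacna1a locus, 21 were higher and 16 lower in the 118Q line, with a median of 0.02 against 0.01 over all genes tested. At an unadjusted p below 0.05, 2 were lower, Cacna1a and Mri1, an enzyme of methionine salvage (-0.38 ± 0.17), against 1.08% of all genes, and 0 were higher; limma called 0. Without replicate 2 of the 118Q line the 2 became 0, and without replicate 3 of the 11Q line the median was -0.06.

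Of the genes that differed by more than 2-fold between the line means there were 15, and 5 of them were choroid plexus genes. The lines overlapped for 6 of the other 10. Comp, a matrix protein of cartilage and tendon, was at 1.98, 2.29 and 1.76 in the 11Q line and at 2.09, 4.29 and 4.41 in the 118Q line. Replicate 1 of the 118Q line sat with the other line, and without it the difference went from 1.59 to 2.34 (limma adjusted p = 0.0316). Rec8, a meiotic cohesin subunit, was at 4.70, 5.09 and 4.53 against 3.37, 2.19 and 4.71, with replicate 3 of the 118Q line inside the 11Q-line range. Sgms2, a sphingomyelin synthase, was at 3.33, 3.14 and 3.29 against 2.2, 1.51 and 2.79, with no overlap. Comp, Rec8 and Sgms2 were named after their values were seen.

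The spread among wild types was small for most genes. The within-line SD, the root of the mean of both within-line variances, had a median of 0.174 log2 units, a 10th percentile of 0.0828 and a 90th percentile of 0.330. It was above 0.5 for 214 genes and above 1 for 24, of which 12 were on the choroid plexus list. Over the 6 knockin arrays the median was 0.151, and the wild type value was the larger for 58.1% of genes. Without replicate 3 of both lines the wild type median was 0.117.

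The 10 steadiest of the bright genes were chosen by rule. Uso1, a tether of transport vesicles, lay between 6.50 and 6.55 in all 6 wild types, and Itm2b, a membrane protein abundant in brain, between 10.96 and 11.06. Psmd1, a proteasome subunit, lay between 7.18 and 7.22, and Hprt, an enzyme of purine salvage often used as a reference, between 8.16 and 8.21. These genes were chosen for a small spread, so their values are a description; in the knockin arrays the same probe sets spanned 6.31 to 6.62 for Uso1 and 7.89 to 8.31 for Hprt.

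The widest spread by far was in the choroid plexus, the epithelium that makes cerebrospinal fluid. Ttr, its thyroxine carrier transthyretin, was at 11.93, 11.88 and 11.89 in the 11Q line and at 11.89, 6.25 and 11.82 in the 118Q line. Replicate 2 of the 118Q line was 5.57 log2 units below the lowest of the other 5 as recorded. Those 5 lay close to the brightest probe set of their arrays (11.96 to 12.13), so the gap may be understated; saturation was not tested. Kcne2, a potassium channel subunit, was at 0.54 in that array and between 4.60 and 5.96 in the others. Kl, the FGF coreceptor klotho, was at 0.79 against 4.44 to 5.87. The values of Kcne2 and Kl in that array lay below 1.58, the mean level under which probe sets were left out of the fit, so no size is given for these gaps. Kcnj13, a potassium channel, was at 2.81 against 5.87 to 7.12, and Folr1, the folate receptor, at 2.23 against 4.91 to 6.11. Replicate 2 of the 118Q line was thus the low array for a carrier, a coreceptor, a vitamin receptor and channel genes.

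Of 21 measured choroid plexus genes of 23, that array was the lowest for 20. The exception was Tmem72, at 2.14 against 2.03 in replicate 3 of the 118Q line. Replicate 1 of the 118Q line was the highest for 19. The median deviation of the list from the mean of 6 arrays was 0.56, 0.58 and 0.02 in the 11Q line and 0.96, -2.13 and -0.10 in the 118Q line. Among the remaining 5 arrays, replicate 1 of the 118Q line was the highest and both replicate 3 arrays were the lowest. Car12, a carbonic anhydrase, and Htr2c, a serotonin receptor, were not on the list and were low in the same array, at 1.77 against 3.90 to 5.15 and at 2.74 against 4.83 to 5.82. In bulk tissue, fewer choroid plexus cells and less RNA per cell cannot be told apart. Knockin arrays spanned a similar range for Ttr, 5.26 to 11.79.

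The line difference of the list rested on this array. With all arrays its median was -0.86, with 0 genes higher and 21 lower; without replicate 2 of the 118Q line it was 0.03, with 13 higher and 8 lower. Without replicate 1 of the 118Q line it was -1.63, and with the 18S signal as a covariate 0.23, with 15 higher and 6 lower. With all arrays no member was called by limma, and 0 had an unadjusted p below 0.05 in either direction.

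**Figure D2:**
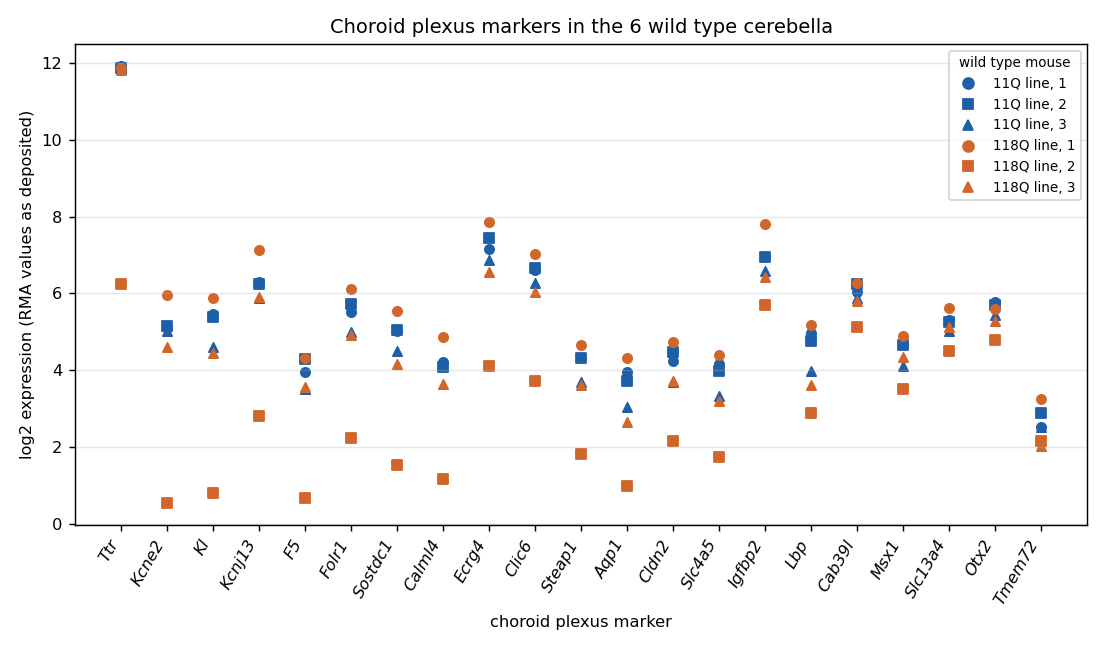
Log2 expression of 21 choroid plexus markers in each wild type mouse, ordered by the gap between replicate 2 of the 118Q line and the lowest of the other 5. The orange squares of that mouse lie below all other points for 20 genes, by a recorded 5.57 log2 units for Ttr.

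Of the cell type lists with at least 5 measured genes, Purkinje and granule cell genes had the smallest median spread. The 23 measured Purkinje cell genes of 28 had a median within-line SD of 0.133, below the 0.174 of all genes, and the same genes had 0.206 in the knockin arrays. Calb1, the calcium buffer calbindin, was at 10.77, 10.68 and 10.70 in the 11Q line and 10.69, 10.77 and 10.87 in the 118Q line. Slc1a6, the glutamate transporter of Purkinje spines, lay between 8.15 and 8.29. Aldoc, the aldolase that marks zebrin stripes, lay between 11.20 and 11.37. The lines overlapped for all 3 genes, which were among the steadiest of the list. Its widest members, Lhx5, Rora and Homer3, had a within-line SD of 0.262, 0.257 and 0.254, above the median of all genes.

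Line differences of the lists are to be read beside all genes tested, of which 52.9% were higher in the 118Q line, with a median of 0.01. The Purkinje list had a median of 0.03, with 13 genes higher and 10 lower. With the 18S signal as a covariate it was 0.18, with 18 higher and 5 lower, and without both replicate 3 arrays -0.01. Lhx1, a homeobox factor of Purkinje cells, was at 6.98, 6.90 and 6.91 against 6.61, 6.49 and 6.55, a separated difference of -0.38 ± 0.14 (SE). Plcb3, a phospholipase of the zebrin-positive cells, differed by 0.24 ± 0.11. Neither was called (limma adjusted p = 0.99993).

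Granule cell genes had a median spread of 0.172 in wild types and 0.0896 in knockins (19 measured of 20). Gabra6, a GABA receptor subunit of these cells, lay between 10.38 and 10.58. Slc17a7, a vesicular glutamate transporter, was the widest member, at 6.32, 5.88 and 4.92 in the 11Q line and 5.52, 5.98 and 4.99 in the 118Q line. Replicate 3 was the lowest array of each line. Of the list, 5 genes were higher and 14 lower in the 118Q line, with a median of -0.05. Without replicate 1 of the 11Q line that became 0.01, with 10 higher and 9 lower.

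Among 15 measured interneuron genes of 17, 2 were higher and 13 lower, with a median of -0.08. Without replicate 2 of the 11Q line it was -0.19, without replicate 2 of the 118Q line -0.18, and with the 18S signal as a covariate 0.02. Eomes, the transcription factor of unipolar brush cells, ranged from 5.23 to 6.88 in the 11Q line and from 5.49 to 6.83 in the 118Q line. Sst, the neuropeptide somatostatin, was at 4.17 in replicate 3 of the 11Q line and between 2.5 and 3.17 in the others. Pvalb, the calcium buffer parvalbumin, had an SD of 0.11.

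Oligodendrocyte genes had the widest median spread of the cell type lists after the choroid plexus. The 19 measured oligodendrocyte genes of 22 had a median spread of 0.345, and their median deviation was -0.22, 0.04 and 0.14 in the 11Q line and 0.04, 0.34 and -0.30 in the 118Q line. Replicate 2 of the 118Q line was the highest for 11 of the 19, replicate 1 of the 11Q line was the lowest for 9 and replicate 3 of the 118Q line for 7. Mog, a surface protein of the myelin sheath, was at 5.59, 5.69 and 6.19 against 5.29, 6.64 and 5.39. Mbp, the myelin basic protein, stayed between 11.25 and 11.62. The line difference of the list had a median of 0.06, with 10 higher and 9 lower. It was 0.21 without replicate 3 of the 118Q line, -0.09 without replicate 2 of that line, -0.04 without replicate 1 of the 11Q line and 0.27 without both replicate 3 arrays, so no direction is given. Sox10, a transcription factor of the lineage, was separated at 4.99, 5.17 and 5.21 against 5.68, 5.67 and 5.29, a difference of 0.42 ± 0.14 (SE) that was not called.

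Astrocyte and Bergmann glia genes lay close to the background, with a median spread of 0.176 and a median line difference of 0.03 over 20 genes. The median line difference was -0.08 without replicate 2 of the 118Q line and 0.08 without replicate 1 of that line. The vessel list had a median spread of 0.239 and a median line difference of 0.03 over 20 genes of 21. The latter was -0.04 without replicate 1 of the 11Q line, 0.12 without replicate 3 of the 11Q line, 0.10 without replicate 2 of the 118Q line and 0.27 with the 18S signal as a covariate, with 17 of the 20 higher.

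Meningeal, microglial and interferon-stimulated genes mostly had higher means in the 118Q line. Genes of 1 list can move together in an array, so the counts below are not counts of independent genes. Separated upward were 4 of 18 meningeal, 0 of 18 microglial and 1 of 23 interferon-stimulated genes, against 4% of all genes. All 18 meningeal genes had higher means in the 118Q line, with a median of 0.23, against 52.9% of all genes tested. Of the 18, 4 had an unadjusted p below 0.05, all higher, against 1.9% of all genes, and 0 were called by limma. That count was 2 without replicate 2 of the 11Q line, 2 without replicate 3 of the 118Q line and 9 without replicate 3 of the 11Q line. Mgp, an inhibitor of calcification, was at 6.56, 6.27 and 6.59 against 6.88, 6.79 and 6.91. Slc22a6, an organic anion transporter, was at 2.44, 2.33 and 2.46 against 2.97, 2.78 and 2.57, and Col1a1, a collagen chain, at 1.65, 1.84 and 2.05 against 2.04, 2.24 and 2.32. The first and second of these were separated between lines, while Col1a1 overlapped by 1 pair of arrays. The list was lowest in replicates 1 and 2 of the 11Q line (-0.25 and -0.18) and highest in replicate 3 of the 118Q line (0.24). Its median was 0.41 without replicate 3 of the 11Q line. Dcn, the matrix proteoglycan decorin, differed by only 0.10 ± 0.13.

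Microglial genes were higher in 16 and lower in 2 of 18 measured (of 22), with a median of 0.26. Of these, 4 had an unadjusted p below 0.05, all higher, against 1.9% of all genes. The count of higher genes at that p was 0 without replicate 1 or replicate 2 of the 11Q line, and 0 with Ttr as a covariate. Without replicate 2 of the 118Q line, and with the 18S signal as a covariate, 0 were higher and 1 was lower. The higher count was 1 without replicate 1 of the 118Q line, 6 without replicate 3 of the 11Q line and 8 without both replicate 3 arrays. Ly86, which pairs with a Toll-like receptor homologue, was at 4.24, 4.27 and 4.85 against 4.78, 5.25 and 4.83. Fcer1g, a signalling chain of Fc receptors, was at 3.64, 3.65 and 3.91 against 4.28, 4.20 and 3.87. Both overlapped, with replicate 3 of the 2 lines close to each other. The 2 lower members were Cx3cr1, the fractalkine receptor, and P2ry12, a receptor for nucleotides, at -0.02 ± 0.18 and -0.14 ± 0.22. Of other markers of resting microglia, Fcrls differed by 0.27, close to the list median, Tmem119 by 0.17 and Siglech by 0.02. The median deviation of the list was -0.16, -0.28 and 0.03 in the 11Q line and 0.09, 0.29 and -0.06 in the 118Q line. By this measure the lines overlapped. The median line difference was 0.13 without replicate 2 of the 11Q line and 0.16 without replicate 2 of the 118Q line. It was 0.44 without both replicate 3 arrays and 0.16 with Ttr as a covariate.

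Interferon-stimulated genes were higher in 22 and lower in 1 of 23 measured (of 27), with a median of 0.19. Replicate 3 of the 118Q line was the highest for 12 and replicate 1 of that line for 8. The median deviation of the list was -0.02, -0.25 and -0.05 in the 11Q line and 0.12, -0.13 and 0.27 in the 118Q line. By this measure the lines overlapped. Ifit3, an antiviral protein, was at 3.13, 2.85 and 3.51 against 3.18, 3.60 and 4.48. Psmb9, an immunoproteasome subunit, was separated at 1.93, 2.05 and 1.67 against 2.37, 2.06 and 2.26, the only member with an unadjusted p below 0.05 (0.34 ± 0.13); limma called 0. The median line difference was 0.11 without replicate 3 and 0.33 without replicate 2 of the 118Q line.

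Cytosolic ribosomal protein genes were higher in 38 of 43, but by a median of 0.10 and with 0 at an unadjusted p below 0.05 and 0 called by limma; 12 of the 43 were separated upward, against 4% of all genes. They had a small spread, 0.0986. With the 18S signal as a covariate the median was 0.02, with 26 higher and 17 lower. Oxidative phosphorylation subunits were higher in 42 and lower in 37, with a median of 0.01, of either sign when single arrays were left out (-0.02 to 0.05), and a spread of 0.108. The part of the 18S signal in these differences was not tested further.

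**Figure D3:**
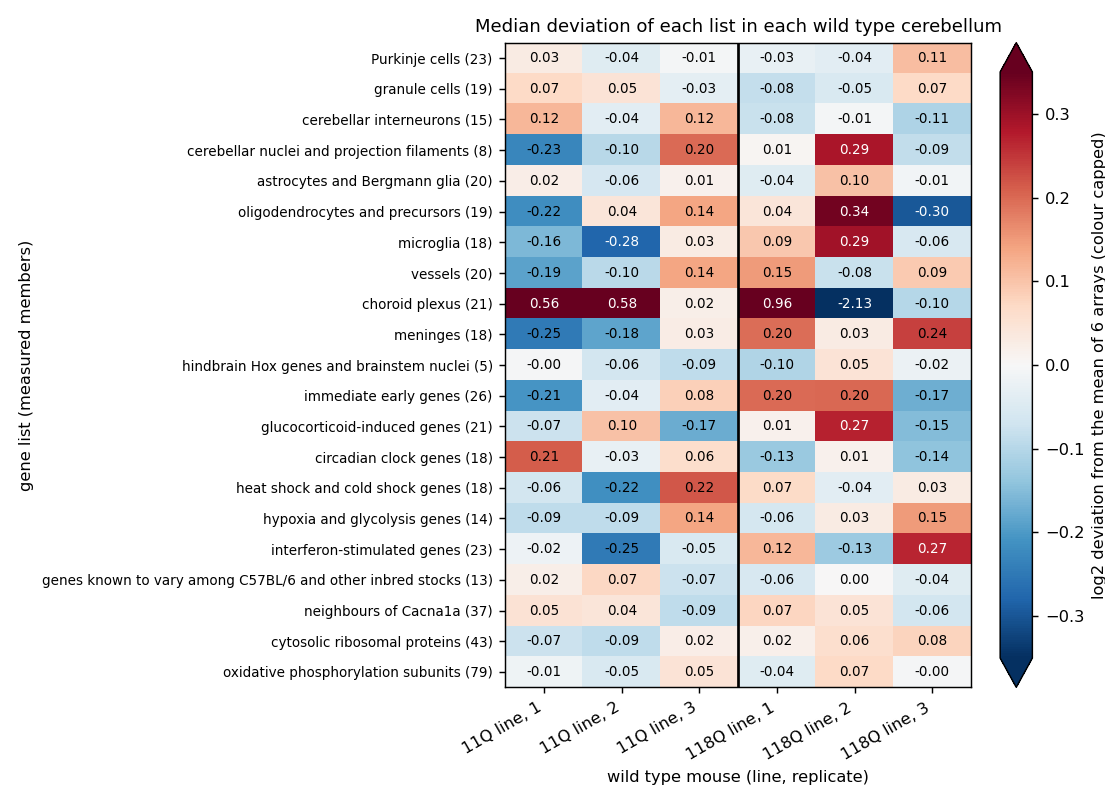
Median deviation of each gene list with at least 5 measured members from the mean of the 6 wild type arrays, in log2 units, with 1 column per mouse and the black line between the lines; the colour scale is capped, and the number is printed in each cell. The choroid plexus list reads -2.13 in replicate 2 of the 118Q line, and the oligodendrocyte list reads 0.34 in the same mouse and -0.30 in replicate 3.

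Immediate early genes, which neurons and other cells switch on within minutes of a stimulus, varied from mouse to mouse. Their median spread was 0.322 over 26 measured genes of 33, and 11 of them were in the top 10% of all genes by spread. Fos, a subunit of the AP-1 factor, was at 5.94, 7.14 and 8.0 in the 11Q line and at 8.25, 7.75 and 6.68 in the 118Q line. Dusp1, a phosphatase that switches off MAP kinases, was at 6.24, 7.70 and 7.82 against 8.05, 7.75 and 6.83. Nr4a3, an orphan nuclear receptor, was at 5.77, 4.42 and 6.85 against 6.55, 6.41 and 5.14. Fos and Dusp1 had their lowest values in replicate 1 of the 11Q line and in replicate 3 of the 118Q line, and Nr4a3 in replicate 2 of the 11Q line. For 14 of the 26 genes replicate 1 of the 11Q line was the lowest of the 6.

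Many such genes are driven by CREB, a factor that binds the cyclic AMP response element. The promoters of the most variable members, chosen by their spread, were searched for this element and its core. They are the 250 bases before the annotated start, from RefSeq on GRCm38.p6, read 5′ to 3′ on the gene's strand, for Fos (chr12:85473640-85473889, plus strand), Nr4a3 (chr4:48045055-48045304, plus strand) and Dusp1 (chr17:26508473-26508722, minus strand). Capitals mark the full element TGACGTCA or its core TGACG on either strand; the full element holds a core on each strand.
Fos: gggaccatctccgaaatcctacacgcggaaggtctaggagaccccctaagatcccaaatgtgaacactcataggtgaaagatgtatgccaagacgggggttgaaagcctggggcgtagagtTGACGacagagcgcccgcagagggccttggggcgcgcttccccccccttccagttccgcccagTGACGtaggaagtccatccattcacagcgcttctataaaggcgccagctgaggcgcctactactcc
Nr4a3: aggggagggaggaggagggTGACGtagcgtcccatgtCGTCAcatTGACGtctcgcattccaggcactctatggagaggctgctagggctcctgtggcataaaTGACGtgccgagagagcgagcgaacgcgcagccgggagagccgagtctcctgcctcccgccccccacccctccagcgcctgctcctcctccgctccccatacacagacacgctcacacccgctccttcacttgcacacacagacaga
Dusp1: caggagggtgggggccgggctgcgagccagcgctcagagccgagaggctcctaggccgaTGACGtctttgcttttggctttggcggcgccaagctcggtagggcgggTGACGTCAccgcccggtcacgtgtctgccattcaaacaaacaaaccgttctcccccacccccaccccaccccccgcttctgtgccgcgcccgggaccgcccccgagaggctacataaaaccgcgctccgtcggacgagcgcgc
Fos held 2 cores, Nr4a3 held 4 and Dusp1 held 1 full element and 1 further core. Nr4a2, next by spread and a relative of Nr4a3, held 4. The core was present in 17.8% of 32851 promoters of the same length and the full element in 1.55%. A match describes the letters and shows no binding.

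Between lines 22 of the immediate early genes were higher and 4 lower, with a median of 0.13. Without replicate 1 of the 11Q line it was 0.02, with 14 higher and 12 lower, and without replicate 3 of the 118Q line 0.25. Klf10, a transcription factor induced by TGF-beta, was the one member with an unadjusted p below 0.05, at 4.16, 4.23 and 4.19 against 3.16, 3.94 and 3.91. It was lower in the 118Q line, without overlap, and was not called.

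Glucocorticoid-induced genes, which report stress hormone, had a median spread of 0.334 (21 measured of 23). Sgk1, a kinase that regulates ion transport, was at 7.18, 7.73 and 8.14 against 7.76, 8.31 and 7.21. Cdkn1a, an inhibitor of the cell cycle, was at 5.31, 6.14 and 5.83 against 6.32, 6.53 and 6.09. Replicate 2 of the 118Q line was the highest for 9 of the 21. The lines differed by a median of 0.08, which was -0.07 without replicate 2 of the 118Q line, 0.16 without replicate 2 of the 11Q line, 0.18 without replicate 3 of the 118Q line and 0.24 without both replicate 3 arrays. AGAACA, a core of the glucocorticoid receptor's binding site, searched on both strands, occurred in 3 of the 6 RefSeq promoters of Sgk1 and in 0 of the 2 of Per1, against 16.1% of all promoters. Xdh and Zbtb16 were also among the 4 widest.

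Clock genes gave a median line difference of -0.15, with 4 of 18 higher and 14 lower. Dbp, a clock output factor, was at 7.79, 7.16 and 7.40 in the 11Q line and 6.59, 6.92 and 6.92 in the 118Q line, separated by -0.64 ± 0.20 (SE; not called). Nfil3, which binds the same sites as a repressor, was at 4.29, 4.70 and 4.85 against 5.07, 4.91 and 5.01, separated the other way. Replicate 1 of the 11Q line had the highest value for 10 of the 18 genes, among them Per2, a core repressor, at 5.19 against 3.67 to 4.77. Without that array the median was -0.09, and without replicate 2 of the 11Q line -0.24. No hour of death was given.

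Heat shock genes were highest in replicate 3 of the 11Q line for 12 of 18. Hspa1b, an inducible chaperone, was at 4.40, 4.47 and 6.99 against 5.12, 4.61 and 5.52, and Hspa1a, its near-identical neighbour, at 3.93, 4.20 and 5.60 against 4.40, 3.91 and 4.55. The sequences of these genes are close enough that probe sets may read both.

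Outside the lists, a group of genes followed the replicate 3 arrays. Slc15a2, a peptide transporter, was at 6.92, 5.77 and 8.03 in the 11Q line and at 4.98, 5.97 and 7.32 in the 118Q line. Zfp729a, a zinc finger gene, was at 3.78, 2.51 and 4.93 against 2.16, 2.61 and 4.12. F2r, the thrombin receptor, was at 5.21, 3.98 and 5.89 against 3.34, 4.91 and 5.96. All 3 had their highest value of each line in replicate 3. Tubb4a, a tubulin of neurons and oligodendrocytes, named after its values were seen, went the other way, at 9.28, 9.13 and 7.58 against 9.04, 8.98 and 7.76, while the knockin arrays lay between 8.51 and 9.11. The hybridisation controls bioC, bioD and cre, which set the same arrays apart, are given above, and bioB did not; their part in these values was not tested.

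Other wide genes turned on single mice. Lamp5, a membrane protein of some interneurons, was at 5.09 in replicate 3 of the 11Q line and between 1.26 and 2.42 in the other 5. Sox2ot, a noncoding RNA gene around Sox2, was at 1.09 in replicate 2 of the 11Q line and between 3.63 and 4.70 elsewhere. Slc7a3, a transporter of cationic amino acids, was at 2.59, 4.40 and 2.37 against 4.28, 2.72 and 4.89, high in 3 mice and low in 3. Of the 100 genes with the widest spread, replicate 3 of the 11Q line was farthest from the others for 36 and replicate 2 of the 118Q line for 29.

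**Figure D4:**
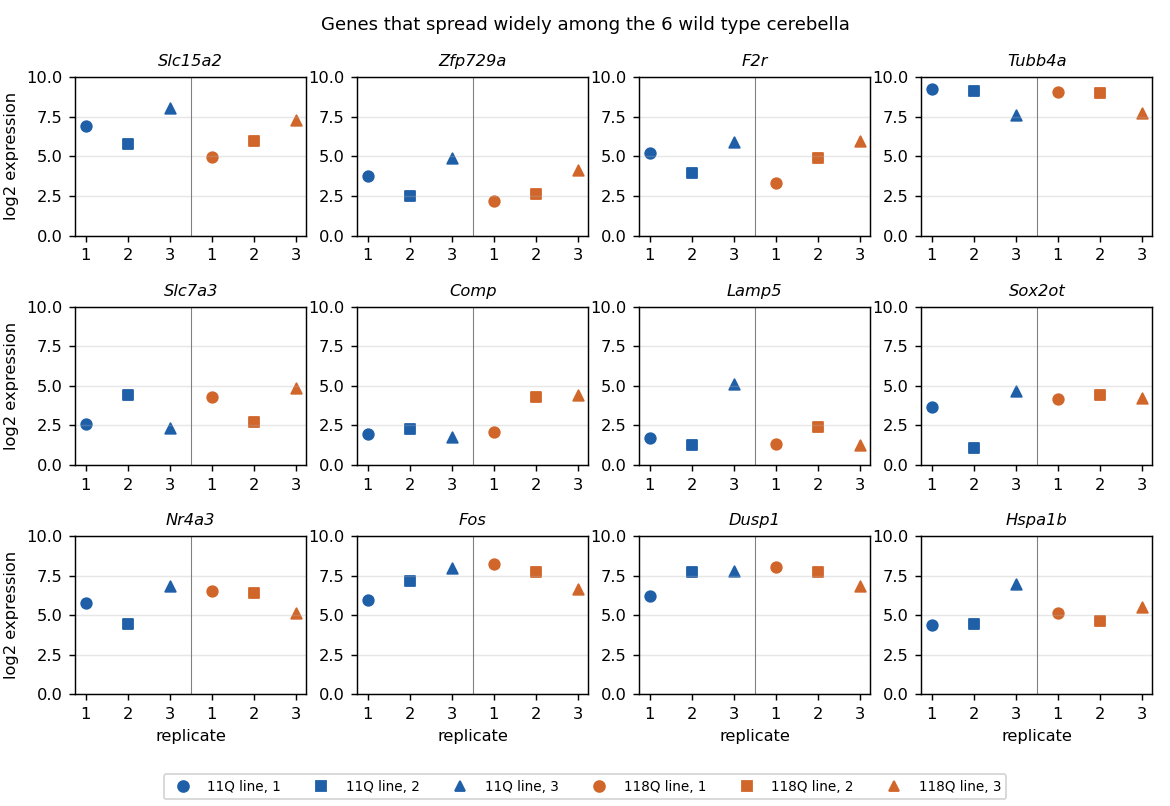
Log2 expression of 12 widely spread genes in each wild type mouse, with blue for the 11Q line, orange for the 118Q line and the replicate on the horizontal axis. Tubb4a is low in both replicate 3 mice, Lamp5 is high in 1 mouse, and Fos and Dusp1 are lowest in replicate 1 of the 11Q line and replicate 3 of the 118Q line.

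**Figure D5:**
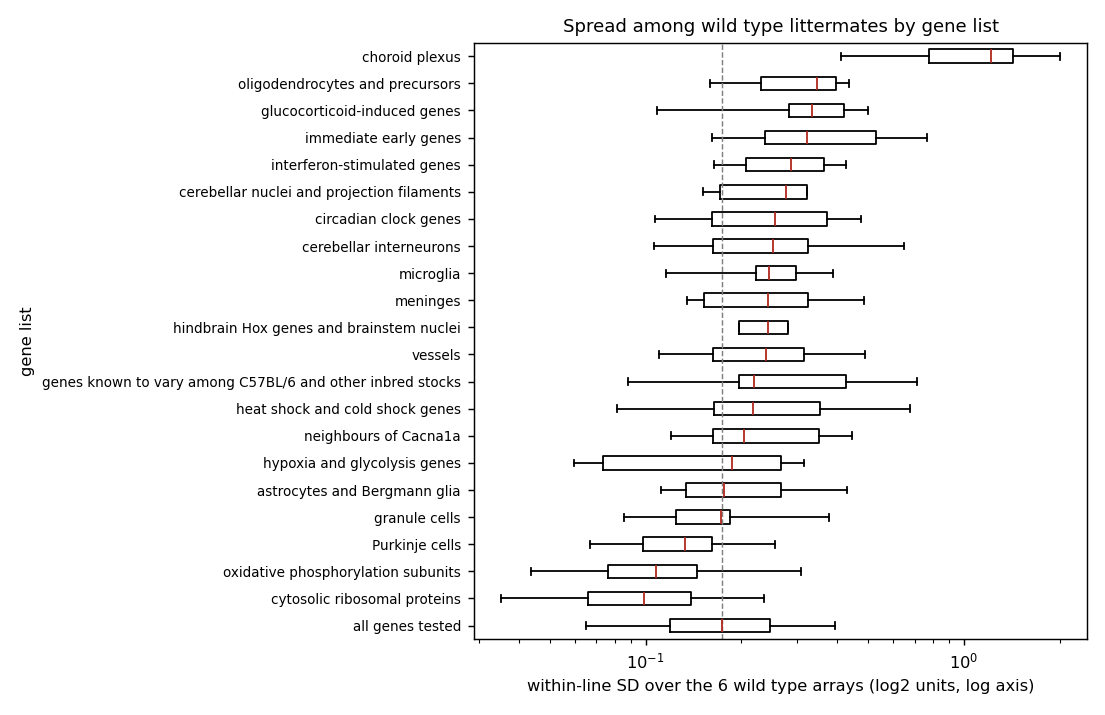
Within-line SD of the genes of each list over the 6 wild type arrays on a log axis; boxes give the quartiles, the red bar the median, whiskers the 5th and 95th percentiles, and the dashed line the median of all genes tested, 0.174. Choroid plexus genes have the highest median and ribosomal protein genes the lowest, 0.0986.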

How the data were processed

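The authors deposited log2 expression values per probe set of a 1-colour Affymetrix mouse array, made with RMA per the submitters' processing notes, which give no version or settings. The values were used as deposited, with no further normalization. Of 45101 probe sets, 34958 had 1 gene symbol, 932 several and 9211 none. Probe sets in the lowest 40% by 12-array mean were dropped (log2 mean under 1.58), leaving 27060, and the brightest probe set of each symbol was kept. Probe sets under the filter entered the alternative without it. Group means of the 12 arrays were fitted in limma 3.58.1 (R 4.3.3; 8 residual and 4.61 prior degrees of freedom), with the contrast of 118Q-line minus 11Q-line wild types and a call at a Benjamini-Hochberg adjusted p below 0.05. The fit was tested on simulated data. Array number, 3 in each group, limits the precision.

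Shared replicate numbers were checked as pairs: deviations of same-numbered wild types from their line means correlated at 0.257, 0.0008 and 0.447 across genes. The titles do not say that equal numbers are pairs, and the main fit has no replicate term. The likeness of the replicate 3 arrays (0.447) therefore stays in its residual spread, and counts with a replicate block are given below. The 24 gene lists, the comparison and the alternatives were chosen with earlier results of these data known. The genes named by rule were, first, the 8 in each direction with the smallest p (as none was called), and Cacna1a. They were also the 20 with the largest within-line SD and the 10 with the smallest among the brightest 25%. In each list the rule gave up to 3 by level, 3 by spread and 2 by p, without predicted genes, and not all of these are named. Some named genes fall outside these rules, among them Pcp2, Slc1a6, Tmem72, Dcn, Slc22a6, Ly86, Cx3cr1, Tmem119, Fcrls and Siglech. Comp, Rec8, Sgms2 and Tubb4a were named after their values were seen. Lists have no test and are given by counts and medians. Control probe sets were compared with exact permutation tests. Alternatives covered the filter, the probe set choice, normalization, weights, covariates, the replicate block, single arrays and the threshold.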

Additional observations from a re-analysis of the deposited data

How the results depend on the processing

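The count of 0 called genes held for the filters, probe set choices, normalizations, intensity trend, the fit of 6 arrays and an adjusted p below 0.1. It became 2 with array weights by limma's default estimate (Cpne8 and Mir1931, each with an adjusted p of 0.0465), which stopped before converging; the gene-by-gene estimate, added after that count was seen, gave 0, with a smallest adjusted p of 0.0742. It was 1 with the 18S signal as a covariate (Prg4), 1 with Ttr as a covariate (S100a9), 1 without wild type replicate 3 of both lines (Cpne8), 0 to 1 when single arrays were left out, and 32 where a 1.5-fold difference and an unadjusted p below 0.05 served as the threshold. The count of 378 genes at an unadjusted p below 0.05 became 606 with no filter, 235 with the lowest 60% removed, 697 over single probe sets, 1732 and 1314 with the default and gene-by-gene array weights, 996 without replicate 3 of both lines, and 284 to 903 when single arrays were left out. The median within-line SD of 0.174 was 0.117 without replicate 3 of both lines and 0.151 to 0.178 without single arrays. Hcfc2 reversed to 0.15 with the mean of its probe sets, and the bioC control, at 0.00 with all arrays, to -0.0516 without both replicate 3 arrays and to values from -0.1246 to 0.1291 without single arrays. With the replicate number as a replicate block, 0 genes were called, and 547 (6 arrays) or 409 (12 arrays) had an unadjusted p below 0.05; not every array correlated best with its own number. With an arm of 2 arrays, the spread was pooled over the other groups. The cause of these shifts was not tested.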

Other observations

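Of genes known to vary among inbred mouse stocks, 5 of 13 measured were higher and 8 lower in the 118Q line, with a median of -0.04. Glo1, an enzyme that clears methylglyoxal, was at 7.08, 7.10 and 7.21 in the 11Q line and at 7.87, 7.19 and 7.69 in the 118Q line, with overlap. Mid1, a ubiquitin ligase at the edge of the pseudoautosomal region, was at 5.49, 4.03 and 5.41 against 4.14, 3.65 and 5.07. H2-K1, a class I histocompatibility antigen, was at 7.60, 7.47 and 7.20 against 6.53, 7.75 and 6.70, while the knockin arrays ranged from 4.25 to 7.91. Limma called 0 of these genes.

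Of the Y-linked genes on the list, 3 were measured. In the 6 wild types Eif2s3y lay between 5.65 and 6.43, Kdm5d between 4.32 and 4.82 and Uty between 3.11 and 3.57, with overlap between the lines for each.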
